A study of Mus musculus with 4 samples.

Results

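Promoter peaks of KMT9alpha that overlapped peaks of both KMT9beta and H4K12me1 were described in organoids grown from a chemically induced mouse colorectal tumour. The peaks were chosen by a rule on the deposited peak lists: a KMT9alpha peak on chromosomes 1 to 19 had to reach, by at least 1 bp, into the window of 1 kb before and after the start of a protein-coding transcript, and had to share at least 1 bp with a peak of each partner. The KMT9beta and H4K12me1 lists held 89936 and 60058 peaks on the same chromosomes. Of 25700 KMT9alpha peaks, 4818 overlapped both partners outside such promoters. At such a promoter lay 11586, and 6985 of these met the whole rule. They are called triple promoter peaks below. They made up 60.3% of the promoter KMT9alpha peaks (exact 95% interval 59.4% to 61.2%). Since the overlap is itself the rule, this share and the other overlaps describe the lists and were not tested.

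The chromatin came from AOM/DSS tumour organoids, that is, cultures of small tissue-like bodies from tumours raised with azoxymethane and dextran sulfate sodium, all from clone 3 at passage 14. KMT9alpha, KMT9beta and H4K12me1 had 1 library each, and an input library was not analysed here. The treatment text shared by the 4 samples gives 1 µM tamoxifen as well as vehicle and does not assign them to libraries, and the genotype is given as NA, so no treatment was compared. With 1 clone and no second library of any antibody, no value has a replicate check, and intervals cover counting error over peaks or genes only. Neighbouring peaks are not independent of each other. Sequencing depth is unknown, and a partner that was not called cannot be told apart from one that was too weak to be called.

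KMT9 is a methyltransferase made of a catalytic subunit, KMT9alpha, encoded by N6amt1, and a partner, KMT9beta, encoded by Trmt112. It is known to place a single methyl group on lysine 12 of histone H4, which gives H4K12me1, and it has been studied as a factor for growth of tumour cells. Most promoters of broadly used mammalian genes are CpG islands, where C followed by G is kept at a high density, and the nucleosome just downstream of the start is usually well placed.

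Of the 20722 protein-coding genes on these chromosomes, 7354 (35.5%) had a triple promoter peak. A total of 10970 genes had overlapping KMT9alpha and KMT9beta peaks at the promoter, and 67.0% of them had a triple promoter peak (exact 95% interval 66.1% to 67.9%). The comparison groups were 3804 promoter KMT9alpha peaks that overlapped KMT9beta without H4K12me1, 196 that overlapped H4K12me1 without KMT9beta, 601 with neither partner, and 4818 KMT9alpha peaks outside promoters with both partners. Among the triple promoter peaks, 858 (12.3%) lay within 1 kb of starts of more than 1 gene, with at most 4 genes at a peak. The triple promoter peaks used 6878 different H4K12me1 peaks and 6797 different KMT9beta peaks. In 206 cases the H4K12me1 peak, and in 360 cases the KMT9beta peak, served another triple promoter peak as well.

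The sequences just upstream of 4 starts are given as examples of promoters behind the triple overlap, from CpG-rich to CpG-poor. Each is the 150 bases before the start, 5′ to 3′ on the gene's strand, from RefSeq GRCm38.p6, and none overlaps an annotated exon. Capitals mark the motifs searched, which are described further on. The Clcn3 stretch (chr8:60983301-60983450, minus strand) lies at one of the triple peaks most tightly centred on the start. The Tmub1 stretch (chr5:24447855-24448004, minus strand) and the Cdk6 stretch (chr5:3343582-3343731, plus strand) belong to peaks picked for the order of their midpoints, and so does the Mapre3 stretch (chr5:30853649-30853798, plus strand). The Cdk6 and Mapre3 stretches each precede an internal start of the gene.
Clcn3: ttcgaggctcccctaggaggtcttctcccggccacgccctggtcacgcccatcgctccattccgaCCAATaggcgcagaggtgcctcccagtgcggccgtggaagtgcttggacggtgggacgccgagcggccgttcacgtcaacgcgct
Tmub1: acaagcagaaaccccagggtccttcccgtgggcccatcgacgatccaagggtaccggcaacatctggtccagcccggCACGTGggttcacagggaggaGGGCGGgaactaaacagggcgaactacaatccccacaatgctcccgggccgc
Cdk6: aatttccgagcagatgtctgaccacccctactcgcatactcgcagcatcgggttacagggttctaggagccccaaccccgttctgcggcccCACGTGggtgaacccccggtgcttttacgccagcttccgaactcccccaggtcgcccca
Mapre3: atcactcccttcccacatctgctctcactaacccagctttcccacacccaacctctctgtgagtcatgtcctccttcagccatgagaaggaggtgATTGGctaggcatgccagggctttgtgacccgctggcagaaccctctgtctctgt
The Clcn3 stretch holds 17 CpG dinucleotides at 67.3% GC, the Cdk6 stretch 11 at 62% and the Tmub1 stretch 10 at 63.3%. The Mapre3 stretch holds 1 CpG at 55.3% GC. All 4 stretches lay wholly within the segment shared by the 3 peaks, and at all 4 the H4K12me1 peak covered the start. Of the stretches read but not printed, the same held for Duxf3, Shh and AW822073. It did not hold for Adgrf3 at chr5:30205722, where the stretch lay outside the shared segment and H4K12me1 did not cover the start. The Shh stretch, at 36.7% GC, was lower in GC than any printed.

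The first question was where the 3 peaks sat around the gene start. Offsets were measured along the direction of transcription, from the nearest start to the peak's midpoint, so that positive values lie downstream. The nearest start can be that of any protein-coding transcript and need not be the gene's annotated 5′ end. All 3 peaks were centred slightly downstream of the start. KMT9alpha had a median offset of 110.5 bp (quartiles -14.5 to 266.5), KMT9beta of 116.5 bp (-50.5 to 304.5) and H4K12me1 of 146 bp (-70 to 363). The H4K12me1 midpoints were the most spread, and the distance from the start without regard to side had a median of 166.5 bp (KMT9alpha), 194 bp (KMT9beta) and 256.5 bp (H4K12me1). The start was chosen as the one nearest the KMT9alpha midpoint, which draws that offset towards 0. Among the 2562 triple promoter peaks with only 1 distinct start in reach, where no choice was made, the median offsets were 205 bp, 186.5 bp and 214 bp for KMT9alpha, KMT9beta and H4K12me1. The midpoint lay downstream of the start in 71.7% of KMT9alpha peaks, 68.6% of KMT9beta peaks and 68.5% of H4K12me1 peaks.

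**Figure D1:**
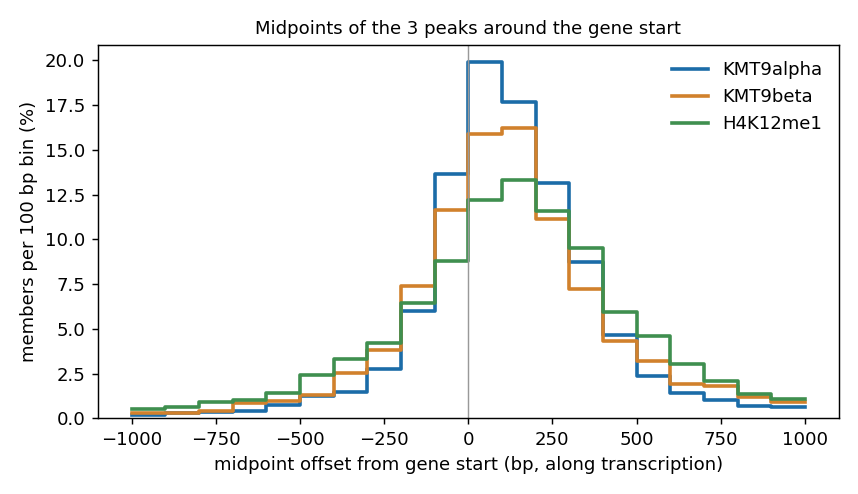
Midpoint offsets from the nearest protein-coding start (x axis, bp along transcription) for the 3 peaks of each triple promoter peak, as the percentage of the 6985 in each 100 bp bin (y axis). All 3 lines are highest just downstream of the start, and the H4K12me1 line is the broadest, with 77.7% of midpoints within 500 bp against 89.2% for KMT9alpha.

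The subunit peaks covered the start more often than the mark did. The rule places only the KMT9alpha peak near a start. The H4K12me1 peaks were also narrower, with a median of 831 bp against 1422 bp for KMT9alpha and 1684 bp for KMT9beta. A narrower peak has less room to cover a point, so these shares describe the lists and were not tested. The start lay inside 92.3% of the KMT9alpha peaks, 96.9% of the KMT9beta peaks and 72.7% of the H4K12me1 peaks, and all 3 covered it in 69.2% of cases. Measured base by base around the start, coverage by KMT9alpha reached 93.0%, by KMT9beta 97.2% and by H4K12me1 75.5%, each at its highest 150 bp downstream. The region covered at least to 50% of these maxima measured 1450 bp (KMT9alpha), 1650 bp (KMT9beta) and 1000 bp (H4K12me1). At promoter peaks with both subunits and no H4K12me1, coverage by KMT9alpha reached 89.7% at 100 bp and by KMT9beta 94.9% at 50 bp downstream, over 1200 bp and 1250 bp. Covering the start went with the width of the mark: the start lay inside 54.9% of the narrowest quartile of H4K12me1 peaks (431 to 627 bp) and inside 88.9% of the widest quartile (1145 bp and more).

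**Figure D2:**
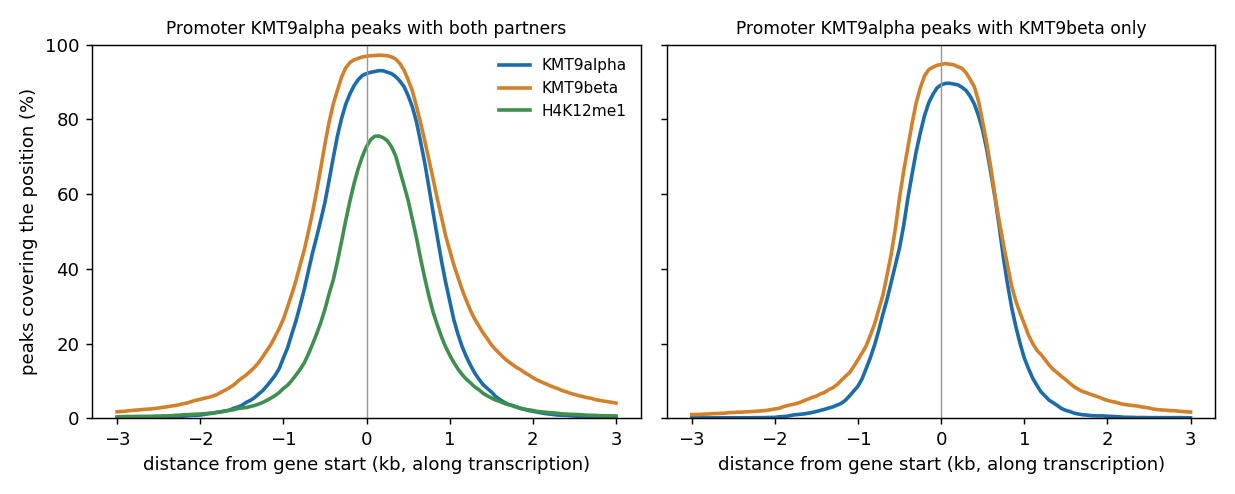
Percentage of peaks that cover each position from 3 kb upstream to 3 kb downstream of the start (x axis, kb along transcription), for the triple promoter peaks on the left and for promoter KMT9alpha peaks with KMT9beta and no H4K12me1 on the right. H4K12me1 reaches 75.5% and covers the shortest stretch, and both subunits cover a longer stretch on the left than on the right.

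By the annotation, the H4K12me1 midpoint fell upstream of the start in 31.3% of triple promoter peaks, in exon 1 in 32.5% and in intron 1 in 31.4%. The KMT9alpha midpoint fell upstream in 28.0%, in exon 1 in 43.0% and in intron 1 in 26.3%. Few had more than 1 partner peak: 763 (10.9%) overlapped at least 2 H4K12me1 peaks, and 228 (3.26%) at least 2 KMT9beta peaks. In 193 (2.76%) an overlapping H4K12me1 peak lay wholly upstream of the start and another wholly downstream. Peaks of the mark that did not overlap the KMT9alpha peak were not counted here, so flanking peaks farther out are missed. Starts on both strands were in reach of 11.3% of triple promoter peaks and of 10.9% of the peaks with both subunits and no H4K12me1, and the intervals of these shares overlap.

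No order of the midpoints prevailed. Read along transcription, KMT9beta then KMT9alpha then H4K12me1 was the most frequent of the 6 orders, with 1493 peaks (21.4%, exact 95% interval 20.4% to 22.4%). KMT9alpha then KMT9beta then H4K12me1 followed with 1309 (18.7%). H4K12me1 came before KMT9alpha and KMT9beta in 1239 (17.7%), and before KMT9beta and KMT9alpha in 1218 (17.4%). The mark between the subunits was less frequent, with 882 in the order KMT9beta, H4K12me1, KMT9alpha and 824 in the order KMT9alpha, H4K12me1, KMT9beta. The remaining 20 had tied midpoints. H4K12me1 was thus farthest downstream in 40.2% (39.0% to 41.3%), farthest upstream in 35.2% and between the subunits in 24.4%.

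The distances behind these orders were short compared with the widths of the peaks. The overlap rule itself limits how far the midpoints can lie apart, so these distances describe the lists and were not tested. The midpoints of KMT9alpha and H4K12me1 were a median of 203 bp apart (quartiles 89.5 to 379.5), and those of the 2 subunits 135 bp (58.5 to 299.5). With its sign, the H4K12me1 midpoint lay a median of 15 bp downstream of the KMT9alpha midpoint (95% interval 7 to 24.5), and downstream of it in 52.1% of cases (50.9% to 53.3%). All 3 midpoints lay within 200 bp of one another in 30.5%. Across the 6985 triple promoter peaks, which share the start used for both values, the KMT9alpha and H4K12me1 offsets had a Spearman correlation of 0.47 and a Pearson correlation of 0.57.

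Of the 5 peaks with all midpoints closest to the start, Vamp4, a SNARE protein of membrane traffic, was the tightest, with midpoints at 4.5, 0 and 0.5 bp for KMT9alpha, H4K12me1 and KMT9beta. Clcn3, a chloride and proton exchanger of endosomes whose promoter sequence is shown above, had the midpoint farthest from the start among the 5. Its midpoints lay at -20.5, -18.5 and -12 bp in the same order. Zfp207, a zinc finger protein that binds spindle microtubules, Cep112, a centrosomal protein, and Dcaf17, an adaptor of ubiquitin ligases that shares its promoter with Mettl8, were the others. All 5 KMT9alpha peaks had the score of 3100 at which that list's scores pile up, and their H4K12me1 scores ran from 71.8 at Zfp207 to 224 at Cep112.

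At the other end, partners were shared over several kilobases. Tmub1, whose start is also shown above, had its subunit midpoints at -35 bp for KMT9alpha and -60 bp for KMT9beta, while its H4K12me1 peak was 10059 bp wide with a midpoint at 4346 bp, beyond the end of the transcript. Shh, the hedgehog ligand, had KMT9alpha at 551 bp, KMT9beta at 728 bp and H4K12me1 at 4738 bp, in intron 1. At Adgrf3, an adhesion-type receptor gene, 2 triple promoter peaks at different starts used the same KMT9beta peak of 11273 bp and the same H4K12me1 peak of 11199 bp. The H4K12me1 midpoint was -3038 bp from one start and 6266 bp from the other. The 2 KMT9alpha peaks lie on either side of these partner midpoints, so the order assigned there depends on which KMT9alpha peak is taken. Cdk6, a cyclin-dependent kinase that promotes entry into the cell cycle, had all 3 midpoints between -912 and -871 bp, within peaks of 4310 to 4613 bp. These offsets run from an internal start at chr5:3343732. The gene's annotated 5′ end is at chr5:3341485, and the midpoints lie downstream of it.

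The remaining examples of each order, taken as those with the highest H4K12me1 scores, were of the same broad kind. Mapre3, a protein of microtubule ends, had H4K12me1 at -2098 bp, KMT9beta at -1979.5 bp and KMT9alpha at -325 bp from an internal start. Dpysl5, a protein of neuronal growth cones, had KMT9beta at -932.5 bp, H4K12me1 at -883.5 bp and KMT9alpha at 587.5 bp, also from an internal start. Ahnak2 had KMT9alpha at -1344 bp, H4K12me1 at -1098 bp and KMT9beta at 668.5 bp, from an internal start as well. Krtcap3, Zfp513, Duxf3 and AW822073 completed the set. Duxf3 and AW822073 start 7745 bp apart on chromosome 10, and the 150 bases before their starts share an identical run of 49 bases, so the mapping of reads between them is uncertain.

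The second question was how wide the peaks were. H4K12me1 was the narrowest of the 3 in 81.4% of triple promoter peaks, and KMT9beta the widest in 65.1%. KMT9alpha had a median width of 1422 bp (quartiles 1081 to 1828), KMT9beta of 1684 bp (1313 to 2326) and H4K12me1 of 831 bp (627 to 1144). The H4K12me1 peak lay wholly inside the KMT9beta peak in 76.5%, wholly inside the KMT9alpha peak in 56.7% and wholly inside both in 49.2%. The KMT9alpha peak lay wholly inside the H4K12me1 peak in 6.34%. The segment common to all 3 had a median length of 715 bp (588 to 986), and 51 triple promoter peaks had no base common to all 3.

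KMT9alpha peaks of the triple overlap were wider than those of the other promoter groups. Their median of 1422 bp compares with 1163 bp where both subunits lacked H4K12me1, 845.5 bp where H4K12me1 lacked KMT9beta and 738 bp where there was neither partner. Outside promoters, KMT9alpha peaks with both partners had a median width of 738 bp, while their KMT9beta peaks (1800 bp) and H4K12me1 peaks (923 bp) had larger medians than those of the triple promoter peaks. Over its whole list KMT9alpha had a median of 828 bp, KMT9beta of 992 bp and H4K12me1 of 623 bp. A wider peak has more room to overlap another, so these widths describe the groups that the rule made and were not tested.

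**Figure D3:**
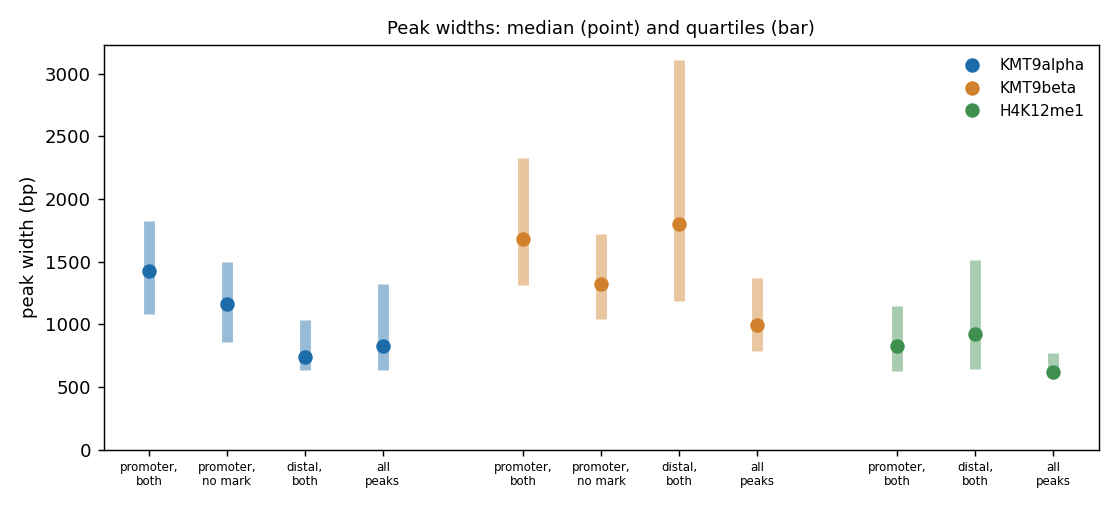
Peak widths (y axis, bp) as medians (points) and quartiles (bars) for triple promoter peaks, promoter peaks with both subunits and no mark, distal KMT9alpha peaks with both partners, and all peaks of the list. Triple promoter peaks have a median KMT9alpha width of 1422 bp against 828 bp over the whole list, and their H4K12me1 peaks a median of 831 bp against 623 bp.

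The widest KMT9alpha peak of the set was at Tnrc18 (chr5:142815976-142824239, 8264 bp), with a midpoint at -2445.5 bp and H4K12me1 at 315.5 bp. Next came Fosl2 (chr5:32132378-32140090, 7713 bp), a subunit of the transcription factor AP-1, and Tgif1 (chr17:70848504-70854560, 6057 bp), a homeodomain repressor of TGF-beta signalling. Fosl2 also had the longest segment common to all 3 peaks, 6743 bp, followed by Zfp513 with 5198 bp, Krtcap3 with 4942 bp, Brd2 with 4858 bp and Adgrf3 with 4501 bp. Brd2, a reader of acetylated histones, was the only one of these 5 outside chromosome 5, and its 3 midpoints lay between 1084.5 and 1274 bp, the H4K12me1 midpoint in intron 1. The Brd2 offsets run from an internal start at chr17:34121747, and the gene's annotated 5′ end is at chr17:34122634. The narrowest were Zfp772 with 396 bp, Ppp2r3d with 410 bp and Ankrd34a with 415 bp.

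The scores, which are the authors' own and are read within a list only, were higher in the triple overlap for both subunits. The median KMT9alpha score was 2908 in triple promoter peaks, against 1708 in promoter peaks with both subunits and no H4K12me1. A score of 3100 or more was reached by 48.3% of the KMT9alpha peaks in triple promoter peaks and by 34.0% in those without H4K12me1. The median KMT9beta score was 269 in triple promoter peaks, against 175 without H4K12me1. The share of promoter KMT9alpha peaks that met the whole rule went from 44.0% at scores under 500 to 71.5% at 3100 or more. Among promoter peaks with both subunits, the share with H4K12me1 went from 43.4% in the lowest quartile of KMT9beta scores to 83.4% in the highest. Width went the same way. The median KMT9beta width was 1684 bp in triple promoter peaks against 1318 bp without H4K12me1. The share meeting the whole rule went from 40.8% to 79.1% across quartiles of KMT9alpha width. A wider peak has more room to overlap another, so these scores and shares describe the lists and were not tested.

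Within the triple promoter peaks, the H4K12me1 score followed KMT9beta more than KMT9alpha. The Spearman correlation with the H4K12me1 score was 0.31 for the KMT9beta score and 0.02 for the KMT9alpha score (n = 6985), and that of the 2 subunit scores with each other was 0.19. The widths of KMT9beta and H4K12me1 had a Spearman correlation of 0.36, and those of KMT9alpha and H4K12me1 0.20. These values come from the same 3 libraries and the KMT9alpha scores pile up at 3100, so they are given as descriptions without a test.

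The third question was what the sequence under the peaks was like. The rule did not use base composition, but it required a protein-coding start in reach, which the distal peaks lack. The contrast with distal peaks is thus not independent of the rule and was not tested. Triple promoter peaks lay in CpG-rich DNA. In 300 bp around the KMT9alpha midpoint the median GC content was 68.3%, against 64.7% at promoter peaks with both subunits and no H4K12me1 and 56.3% at distal KMT9alpha peaks with both partners. The ratio of observed to expected CpG there had a median of 0.837 (95% interval 0.832 to 0.844), against 0.789 (0.780 to 0.797) without H4K12me1 and 0.285 at the distal peaks. Around the gene start the ratio was 0.862 at triple promoter peaks and 0.822 at those without H4K12me1, against 0.581 over all protein-coding starts. The ranges between the quartiles overlapped widely between the first 2 groups.

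Within a triple promoter peak, GC and CpG were lower around the mark where the mark was displaced. Around the H4K12me1 midpoint the median GC content was 67% and the CpG ratio 0.799, and around the KMT9beta midpoint 67.3% and 0.824. Around the start the ratio was 0.862, and the start was chosen as the one nearest the KMT9alpha midpoint. The H4K12me1 midpoint lay farther from it, at a median of 256.5 bp against 166.5 bp for KMT9alpha. What part distance from the start has in the values below was not tested. In the 2356 peaks whose KMT9alpha and H4K12me1 midpoints were at least 300 bp apart, the CpG ratio was lower around H4K12me1 in 65.2% (exact 95% interval 63.2% to 67.1%) and GC content in 62.1%. This held on either side. With H4K12me1 downstream (1280 peaks) the median CpG ratio was 0.666 around the mark and 0.825 around KMT9alpha, and with H4K12me1 upstream (1076 peaks) it was 0.708 around the mark and 0.796 around KMT9alpha.

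**Figure D4:**
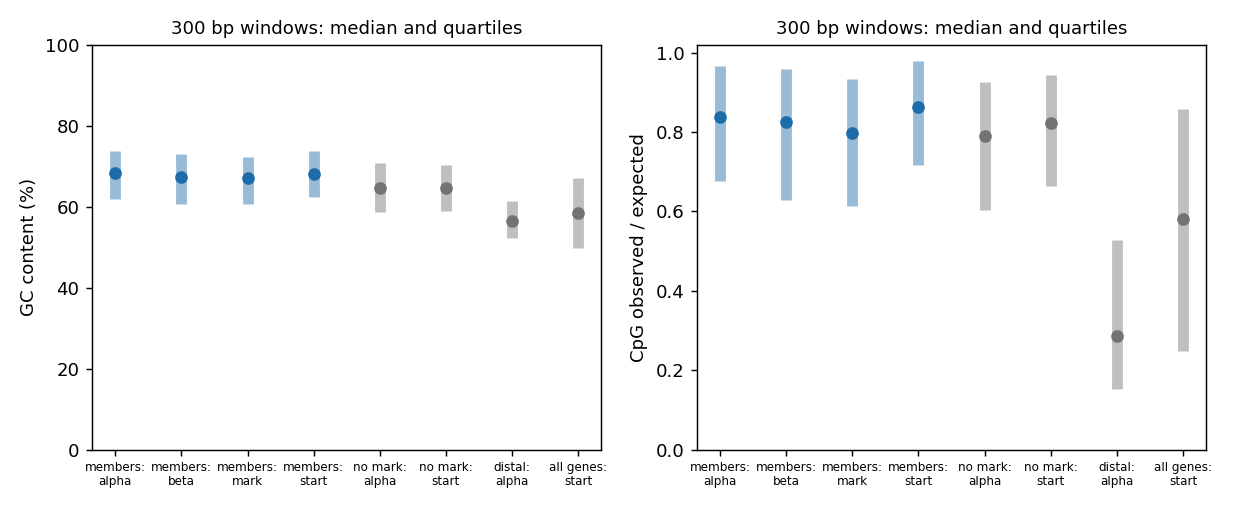
GC content in percent (left) and the ratio of observed to expected CpG (right) in 300 bp windows, as medians (points) and quartiles (bars), for triple promoter peaks (blue) and for the comparison groups (grey). The CpG ratio has a median of 0.837 around KMT9alpha in triple promoter peaks, 0.789 without the mark and 0.285 at distal peaks.

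Short motifs were counted on both strands from 250 bp before to 50 bp after the start, as plain letter matches that are not binding sites. The GC box, GGGCGG, which Sp1 family factors can bind, was found at 74.2% of triple promoter peaks (73.2% to 75.2%), at 64.9% of those without H4K12me1 (63.3% to 66.4%) and at 43.5% of all protein-coding starts. The ETS-like motif CCGGAAG went the other way between the first 2 groups, with 16.7%, 19.8% and 10.9%, and so did CCAAT with 33.3%, 38.3% and 35.6%. The TATA box letters TATAAA were found at 4.98% of triple promoter peaks, 5.44% of those without H4K12me1 and 11.3% of all starts. Between triple promoter peaks and those without H4K12me1, intervals overlapped for the E-box CACGTG (10.3% and 10.6%), GCGCATG (6.59% and 7.28%), AAGATGG (7.59% and 7.73%), TGACGTC (5.48% and 6.36%) and TCGCGAG (4.21% and 3.63%). The GC box is made of G and C alone, and GC content also differs between these groups. What part composition has in the motif shares was not tested.

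The fourth question was which genes carried a triple promoter peak. Of 26 gene families, taken by symbol, 13 had a share of genes with a triple promoter peak whose exact 95% interval lay above the 35.5% of all genes, 5 lay below and 8 included it. The families differ in promoter CpG content as well, and its part in these shares was not tested. Among genes with both subunits at the promoter, the figure over all genes is 67.0%. The families whose interval lay off that figure are given further on.

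Crypt genes of Wnt and Notch signalling and stem cells had the highest share. Its interval, given next, also held the shares of other families, such as autophagy genes (64.5%) and histone genes (62.7%). Among crypt genes with both subunits at the promoter, 74.2% had the mark (55.4% to 88.1%), an interval that included 67.0%. Of 34 Wnt, Notch and stem cell genes of the crypt, 23 (67.6%, 49.5% to 82.6%) had a triple promoter peak, with the highest H4K12me1 scores at Tcf7l2, the main transcription factor partner of beta-catenin in the gut, and Jag2, a Notch ligand. At Tcf7l2 KMT9alpha was centred at 1229 bp, KMT9beta at 1135 bp and H4K12me1 at 1423.5 bp, and at Jag2 at 596, 453.5 and 722 bp in the same order. The Tcf7l2 offsets run from an internal start. Rnf43, a ubiquitin ligase that removes Wnt receptors, had no peak of any library at its promoter. Of 12 gut epithelium markers, 8 had a triple promoter peak (66.7%), but the interval of 34.9% to 90.1% included the figure for all genes. Among them were Krt8, a keratin of simple epithelia, with 3 midpoints from 88 to 956.5 bp, and Vil1, the microvillus protein villin, with -373 to -84 bp, while Krt20 had no peak. Of 13 markers of immune cells, fibroblasts, endothelium and neurons, 1 had a triple promoter peak, Pdgfra, a growth factor receptor of fibroblasts, and 6 had no peak of any library. That share, 7.69%, had an interval of 0.195% to 36.0%, which also included the figure for all genes.

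Lgr5 and Ctnnb1, chosen after their values were seen, show how far the mark could lie from the subunits. Lgr5, the receptor that marks crypt stem cells, had 2 triple promoter peaks of 1256 and 913 bp that shared the same H4K12me1 peak of 761 bp with its midpoint at 937 bp. One had its KMT9alpha midpoint at -40.5 bp and a common segment of 31 bp, and the other its midpoint at 1046 bp and a common segment of 728 bp. Ctnnb1, which encodes beta-catenin, had KMT9alpha at 97.5 bp, KMT9beta at -363.5 bp and H4K12me1 at -830.5 bp.

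Families of proliferation and gene expression also stood above all genes. Of 116 cell cycle and replication genes, 62 (53.4%) had a triple promoter peak, with the highest H4K12me1 scores at Cdk6 and Cdk14, and no peak at Bub1 or Aurkc, both kinases of mitosis or meiosis. The counts were 47 of 75 histone genes (62.7%), led by H3f3a and Hist2h3c2, 48 of 79 splicing and RNA-binding factors (60.8%), led by Hnrnpd and Srsf6, and 40 of 78 genes of RNA polymerase II, Mediator and the general factors (51.3%), led by Taf5 and Med13l. Histone gene clusters hold near-identical copies, so their reads may be split between copies. When a peak counted only for the gene of its nearest start, the share was 41.3% for histone genes and 39.7% for the RNA polymerase II group, against 31.7% of all genes, and both intervals then included the figure for all genes. Of 38 aminoacyl-tRNA synthetases, which charge tRNAs, 18 (47.4%) had a triple promoter peak, with an interval that included the figure for all genes.

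Translation and respiration genes had shares near 50%: 40 of 78 cytosolic ribosomal proteins (51.3%), 37 of 78 mitochondrial ribosomal proteins (47.4%) and 47 of 96 respiratory chain genes (48.96%). With the gene of the nearest start only, the mitochondrial ribosomal proteins had 29.5% and the respiratory chain 38.5%, against 31.7% of all genes. With scores at or above the median they had 21.8% and 28.1%, against 23.0% of all genes. All 4 intervals included the figure for all genes. Rpl28, a cytosolic ribosomal protein, had the subunits at 53 bp and -10 bp and H4K12me1 at 1266.5 bp, with 62 bp common to all 3. Families of membrane traffic and protein turnover were 33 of 55 Rab GTPases (60%), 54 of 101 vesicle coat, SNARE and Vps genes (53.5%), 20 of 31 autophagy genes (64.5%), 46 of 84 ubiquitin E2 and Usp enzymes (54.8%) and 43 of 82 chaperones (52.4%). The chaperones had an interval that included the figure for all genes with the nearest start only (41.5%), with scores at or above the median (31.7%) and with lists of equal length (29.3%), and so did the ubiquitin enzymes with scores at or above the median (32.1%). The vacuolar ATPase, with 12 of 24, had an interval that included the figure for all genes. Map1lc3b, which encodes the LC3 protein of autophagosomes, had its 3 midpoints between -51 and 49 bp.

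The 5 families below the figure for all genes hold many genes that are used in few tissues. Only 2 of 1412 olfactory and vomeronasal receptor genes (0.142%) had a triple promoter peak, Olfr641 and Vmn1r4, and the Vmn1r4 peak also lay at the start of Nt5c3. The counts were 14 of 248 serpin, Cyp, Ugt and secreted protease genes (5.65%), 5 of 42 collagens (11.9%, not below with lists of equal length), 30 of 241 immune cell genes (12.4%) and 39 of 205 ion channel and neurotransmitter receptor genes (19.02%). Cyp51, an enzyme of cholesterol synthesis used in most cells, and Cyp26a1, which breaks down retinoic acid, had the highest H4K12me1 scores of the first of these. The solute carriers (117 of 330, 35.5%) and the Zfp zinc finger genes (127 of 385, 33.0%) were close to all genes.

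**Figure D5:**
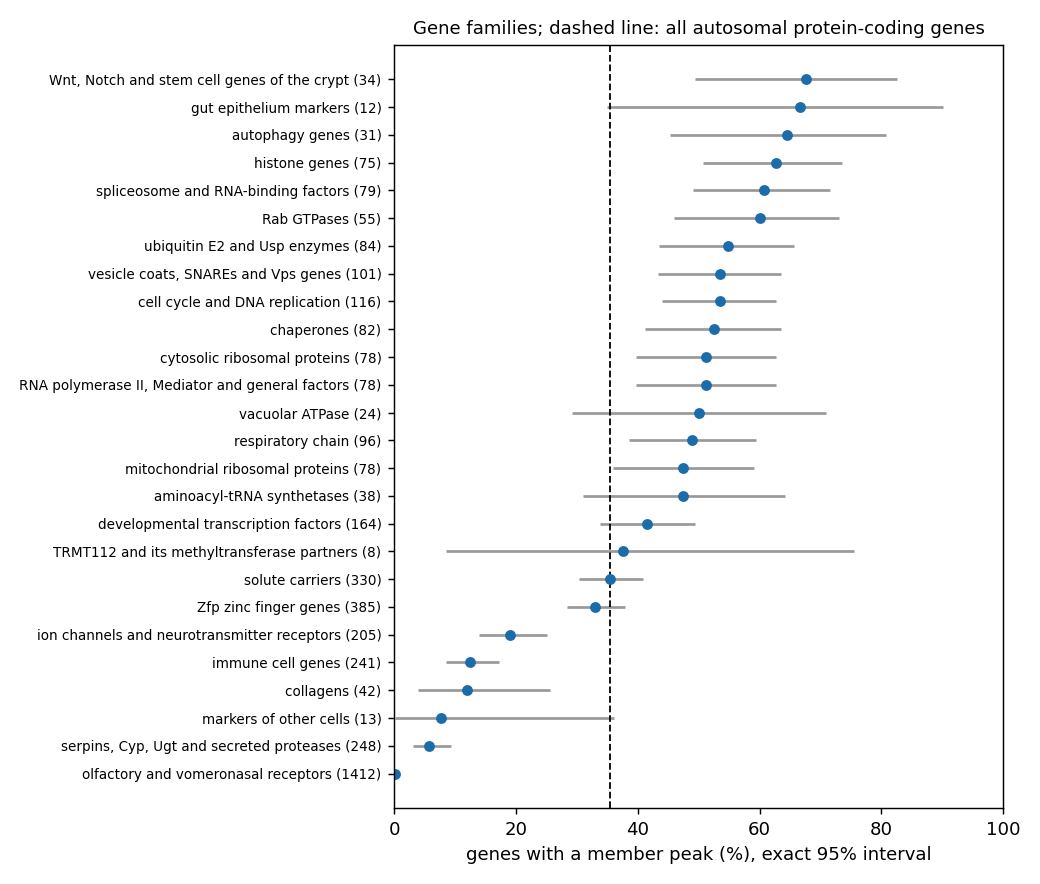
Percentage of genes of each family with a triple promoter peak (x axis), with exact 95% intervals and the number of genes in brackets. The dashed line marks the 35.5% of all autosomal protein-coding genes, and 13 of 26 intervals lie above it and 5 below.

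Among genes with both subunits at the promoter, the share with H4K12me1 had an interval that included 67.0% in 20 of 26 families. The 5 families below all genes were among these 20, from 50% (olfactory and vomeronasal receptors, 2 of 4 genes) to 76.5% (ion channels and neurotransmitter receptors, 39 of 51). The intervals were wide, 6.76% to 93.2% for the olfactory and vomeronasal receptors and 29.0% to 96.3% for the 7 collagens. With so few genes, including 67.0% does not show that these families match all genes. Few genes of the 5 families had a KMT9alpha peak at the promoter, for example 7 of 42 collagens and 55 of 205 ion channel and neurotransmitter receptor genes. Over all genes it was 11560 of 20722. Developmental transcription factors lay above 67.0%, with 68 of 85 (80%, 69.9% to 87.9%), and among them Pax2 and Foxf1 had the highest H4K12me1 scores. Of all 164 such factors 41.5% had a triple promoter peak, and the interval included the figure for all genes. Below 67.0% lay the aminoacyl-tRNA synthetases with 48.6%, the Zfp genes with 48.7%, the mitochondrial ribosomal proteins with 52.1%, and the cytosolic ribosomal proteins and RNA polymerase II factors with 54.8% each. All 38 synthetase genes and all 78 mitochondrial ribosomal protein genes had a KMT9alpha peak at the promoter.

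The genes of KMT9 itself differed, and they lie on chromosomes that differ too. Trmt112 is on chromosome 19, where 85.3% of promoter KMT9alpha peaks met the whole rule. N6amt1 is on chromosome 16, where 55.7% did. What part the chromosome has was not tested. Trmt112, which encodes KMT9beta, had a triple promoter peak that also lay within 1 kb of a Prdx5 start, with KMT9alpha at 149.5 bp, H4K12me1 at -233 bp and KMT9beta, in a peak of 6075 bp, at 1861 bp. The Trmt112 offsets run from an internal start. N6amt1, which encodes KMT9alpha, had peaks of both subunits with midpoints at 83.5 and 130.5 bp and no H4K12me1, the nearest peak of the mark lying 9373 bp away. Of 8 genes for TRMT112 and the methyltransferases known to bind it, 3 had a triple promoter peak, the others being Bud23 and Thumpd3.

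Chromosome 19 stood apart in the share of its promoter KMT9alpha peaks that met the whole rule, with 458 of 537 (85.3%). Chromosome 5, with 556 of 872 (63.8%), lay inside the range of the other autosomes, 54.1% to 65.2%. Chromosomes 19 and 5 had 86.0 and 42.9 H4K12me1 peaks per Mb, against 11.98 to 36.8 on the others. They hold 6.56% and 7.96% of the triple promoter peaks. Of the 100 triple promoter peaks with the highest H4K12me1 scores, however, 24 lay on chromosome 19 and 47 on chromosome 5, and of the 100 with the longest common segment 27 and 39. Of the 12 examples named for an order 9 lay on chromosome 5, and of the 51 peaks picked for the highest H4K12me1 scores of a family 16 lay on chromosome 5 and 11 on chromosome 19. Without both, 5971 of 10177 promoter KMT9alpha peaks (58.7%) met the rule, and the median H4K12me1 offset was 147.5 bp.

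The rule turns on an overlap of 1 bp, and few peaks were near it. Just inside were Bik with 2 bp shared by KMT9alpha and H4K12me1, Htra2 with 6 bp and Tkfc with 6 bp. Just outside were Polrmt, Sap30 and Smarca2, whose H4K12me1 peak missed KMT9alpha by 1, 2 and 4 bp. An overlap under 100 bp was seen in 80 triple promoter peaks (1.15%). Of the 3804 promoter peaks with both subunits and no H4K12me1, 73 had a peak of the mark less than 100 bp away and 580 (15.2%) less than 1000 bp away, and the median gap was 8217 bp. The number of triple promoter peaks was 4366 when each list was limited to scores at or above its median, 4299 when the lists had equal numbers of peaks, and 2466 when each peak was cut to its central 200 bp.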

How the data were processed

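Chromatin immunoprecipitates of KMT9alpha, KMT9beta and H4K12me1 from 1 organoid clone were sequenced, 1 library each, and mapped to mm10. Per the labels' protocols the aligner was STAR, and the submitters' processing notes name Bowtie2. The deposited lists give positions and a score per peak, of which the lowest was 50. Caller settings, control and the meaning of the score were not given in the sources used. Depth is unknown.

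Peaks on chromosomes 1 to 19 were kept. None overlapped within a list. Gene starts were the 52065 starts of protein-coding transcripts in GENCODE M21. A peak with several overlapping partners was paired with the one sharing most bases. Offsets run from the nearest start to the midpoint along transcription. Base composition was read in 300 bp windows of RefSeq GRCm38.p6. Shares have exact Clopper-Pearson 95% intervals and medians have binomial order-statistic intervals. No test was made, since each antibody had 1 library.

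The peaks, the 26 gene families and 9 motifs were chosen with earlier results of these data known. Named genes were the 5 with the longest common segment, the 5 with midpoints closest to the start, the 2 with the highest H4K12me1 score in each order and family, up to 2 genes per family without a peak, the 3 widest and 3 narrowest, the 3 nearest the overlap limit on each side, and the KMT9 genes; some are not described. Sequences were printed only where the 150 bases before the start held no exon, and not every sequence read is shown. Alternatives changed the overlap rule, promoter window, starts, partner, score threshold, peak number and chromosomes. The steps recovered the planted overlaps and offsets on simulated data. The tools were pandas 2.3.3, pysam 0.24.0, numpy 2.4.6, scipy 1.17.1 and matplotlib 3.10.9 under Python 3.11.15.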

Additional observations from a re-analysis of the deposited data

How the results depend on the processing

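No paired analysis was possible because each antibody had 1 library and no second condition. Of 128 values recomputed for the main comparisons, 87 stayed within their interval or, for counts, within 1.5 times. The others were as follows. Peaks cut to their central 200 bp gave 2466 triple promoter peaks at 13.1% of genes, and lists of equal length gave 4299 at 21.8%. Scores at or above the median gave 4366 at 23.0%, a median H4K12me1 offset of 157 bp, H4K12me1 farthest downstream in 41.7%, widths of 1544, 1774 and 981 bp, CpG ratios of 0.861, 0.8475 and 0.825 and GC contents of 69.3%, 68.3% and 68% for KMT9alpha, KMT9beta and H4K12me1. The share of genes was 34.1% with an overlap of at least 50% of the shorter peak, 36.4% with promoters of 2 kb, 33.5% with the start inside the peak, 36.2% with all transcripts and 34.0% without chromosomes 5 and 19. That last setting also gave widths of 1642 bp for KMT9beta and 792 bp for H4K12me1, with CpG ratios of 0.8365 and 0.8065. The partner nearest the start put H4K12me1 farthest downstream in 39.0%. Starts of 1 strand gave offsets of 124.75 bp for KMT9alpha and 129 bp for KMT9beta, a KMT9alpha width of 1394 bp and a GC content of 68.7%. Basic transcripts gave offsets of 136.5, 136 and 169.5 bp for KMT9alpha, KMT9beta and H4K12me1. A single distinct start gave 205.25, 186.5 and 214 bp, a KMT9alpha width of 1321.5 bp and CpG ratios of 0.828, 0.808 and 0.789. The families above all genes numbered 10, 9 and 10, against 13, with the nearest gene only, with scores at or above the median and with equal lists, and 5 lay below in each. Those no longer above were histone genes, RNA polymerase II factors, chaperones, mitochondrial ribosomal proteins and the respiratory chain with the nearest gene only, while developmental transcription factors and gut markers joined. With the score limit they were chaperones, ubiquitin enzymes, mitochondrial ribosomal proteins and the respiratory chain. With equal lists they were chaperones, mitochondrial ribosomal proteins and the respiratory chain, and below all genes the Zfp genes (15.8%) replaced the collagens (9.52%). The causes were not tested. With unknown depth, no limit on undetected partners can be given.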

Other observations

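The X chromosome, which the rule leaves out, had no triple promoter peak. Of its 281 KMT9alpha peaks at promoters 0 overlapped both partners, which allows a share of up to 1.07% by a limit of 3 counts and 1.30% by the exact 95% interval, against 54.1% to 85.3% on the single autosomes. KMT9beta overlapped 54 of the 281 (19.2%), against 90.1% to 97.0% of the promoter KMT9alpha peaks on the single autosomes. H4K12me1 had 190 peaks on X, 1.11 per Mb, against 11.98 to 86.0 per Mb on the autosomes. How many X chromosomes the clone has was not given. On Y, 1 of 6 promoter KMT9alpha peaks met the whole rule.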
